A study of Homo sapiens with 6 samples.

Results

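The immediate early genes of the EGR, IER and NR4A families and SRF were examined in BT-549 cells, a widely used line of human triple-negative breast cancer (TNBC), after silencing NEAT1. The genes were chosen by symbol as EGR1, EGR2, EGR3, IER2, IER3, IER5, SRF, NR4A1, NR4A2 and NR4A3, and all 10 were found among the 25545 genes of the expression table. RNA-seq libraries were made from 3 cultures transfected with a control siRNA (BT-549/CsiRNA cells) and 3 transfected with NEAT1siRNA (BT-549/NEAT1siRNA cells), at 48 h in both groups. All cells were grown in RPMI1640 medium with serum and insulin, and no starvation or acute stimulus is named for either group. The NEAT1 siRNA was a single product, directed against a long noncoding RNA around which nuclear paraspeckles form. The sample titles also carry the word tet, whereas the treatment field of each sample gives siRNA.

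Immediate early genes are transcribed within minutes of a growth factor, cytokine or stress signal, with no need for new protein synthesis, and their mRNAs usually decay fast. Serum response factor (SRF) binds the CArG box, together with ETS-family partners that ERK phosphorylates or with actin-regulated MRTF cofactors, and it drives EGR genes and SRF itself. EGR proteins are zinc finger transcription factors, NR4A proteins are orphan nuclear receptors that bind the NBRE without a known ligand, and the IER genes encode short proteins that act in growth, survival and heat-shock responses.

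The stretches just upstream of the start sites are shown for 4 of the genes, because known control elements of EGR1 and SRF lie there, and because IER2 and IER5 are the tested genes with a RefSeq window that changed below. Each is the 150 bases before the RefSeq start site on GRCh38.p14, plus strand, 5′ to 3′, and capitals mark a CArG box, the short CRE motif TGACGT or the ETS core CCGGAA on either strand.
EGR1, chr5:138465329-138465478: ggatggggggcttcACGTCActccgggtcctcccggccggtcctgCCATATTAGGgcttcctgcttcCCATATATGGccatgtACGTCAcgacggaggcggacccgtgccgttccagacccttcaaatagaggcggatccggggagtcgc
SRF, chr6:43171119-43171268: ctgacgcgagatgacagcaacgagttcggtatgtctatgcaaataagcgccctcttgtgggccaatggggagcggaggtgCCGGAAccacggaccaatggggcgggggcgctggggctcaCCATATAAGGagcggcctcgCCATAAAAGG
IER2, chr19:13150261-13150410: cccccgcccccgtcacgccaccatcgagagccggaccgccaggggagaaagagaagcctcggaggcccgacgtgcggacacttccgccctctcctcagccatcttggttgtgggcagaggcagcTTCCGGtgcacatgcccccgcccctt
IER5, chr1:181088550-181088699: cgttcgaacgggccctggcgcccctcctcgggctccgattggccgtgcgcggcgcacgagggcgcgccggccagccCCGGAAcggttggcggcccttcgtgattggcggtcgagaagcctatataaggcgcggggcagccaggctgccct

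The EGR1 stretch holds 2 CArG boxes, CCATATTAGG and CCATATATGG, and 2 short CRE motifs. The SRF stretch holds 2 CArG boxes, CCATATAAGG and CCATAAAAGG, with 1 ETS core, and also the EGR site GCGGGGGCG. The IER2 and IER5 stretches hold 1 ETS core each and no CArG box. A CArG box was found in 1.29% of the 35116 RefSeq windows of 300 bases (250 before to 50 after a start site), a short CRE motif in 7.98%, an ETS core in 17.2% and an EGR site (GCGGGGGCG or GCGTGGGCG) in 5.77%, with both strands searched. Of the 11 windows of the 7 genes with an entry (EGR1, EGR2, IER2, IER5, NR4A1, NR4A3 and SRF), 3 held a CArG box, namely those of EGR1, the first start site of SRF and 1 of 3 start sites of EGR2. The NR4A3 window held 3 short CRE motifs, and 1 of the NR4A1 windows held an ETS core. The whole CRE TGACGTCA (1.85% of windows, and overlapping the short motif), the NBRE AAAGGTCA (1.22%) and the AP-1 site TGANTCA (7.71%) were found in none of the 11 windows. The NF-κB site (11.3%) was found in 3 of them, both SRF windows and 1 of EGR2, and the E-box CACGTG (7.26%) in 1 of EGR2. These are matches of letters in these windows, and no binding was measured.

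Expression was measured as TPM, which scales the reads of a gene by its length and by the library, and compared on log2(TPM + 1) with limma's moderated test (two-sided) for the 10721 genes with a mean of at least 1 TPM. The threshold for a change was 0.05 on the p adjusted by Benjamini-Hochberg over all of them. Fold changes given with limma are differences on log2(TPM + 1), where the added 1 shrinks those of genes at low TPM. NEAT1 itself had 13.4, 7.68 and 10.8 TPM in BT-549/CsiRNA cells and 2.73 to 4.36 TPM in BT-549/NEAT1siRNA cells (a mean of 31.5% of the control, adjusted p = 1.21e-07 from limma). This value is for the whole gene and does not separate its short and long isoforms, of which the authors describe only the long one as essential for paraspeckles. Of the genes tested, 535 were higher and 963 lower, and the median log2 fold change was -0.044. That split depended on scaling, with 1082 higher and 1109 lower after quantile normalization, 1158 and 954 after centring on the median, and 940 and 1119 after rescaling without 4 short noncoding RNAs that held 64.4% to 68.1% of the TPM. These RNAs held 2.30% to 3.01% of the recovered reads. Depth, recovered as reads from the deposited tables, was 15789776 to 20341442 per library. Between pairs of replicates of a group, the variance was 4.78 to 15.3 times that of sampling noise alone (chi-square per degree of freedom). Mesenchymal markers were present, with VIM at 859 to 1112 TPM and ZEB1 at 13.5 to 17.3 TPM. Of the epithelial and receptor markers, MUC1 had 13.5 to 22.4 TPM, ERBB2 5.76 to 6.36 TPM and KRT18 1.04 to 2.07 TPM, while KRT8, KRT19, KRT5, KRT14, EPCAM, CDH1 and GATA3 stayed at or below 0.283 TPM, PGR at or below 0.0068 TPM and ESR1 was listed at 0 in all 6 libraries. The leukocyte marker PTPRC (at most 0.058 TPM) and the endothelial marker PECAM1 (at most 0.0125 TPM) were near 0, and of the 7 breast line markers tested MUC1 was higher (adjusted p = 0.0399 from limma) and CDH2 and FN1 lower (0.0186 and 0.00116).

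IER2, IER3 and IER5 were lower in BT-549/NEAT1siRNA cells, to between 64.7% and 73.4% of the control mean. EGR1 and SRF did not pass the test, and EGR2, EGR3 and the NR4A genes were too low to enter it. IER5L (IER5-like), outside the group and chosen after its values had been seen, did not pass either. It had 37.6 to 40.4 TPM in BT-549/CsiRNA cells and 37.2 to 41.4 TPM in BT-549/NEAT1siRNA cells (log2 fold change 0.027, adjusted p = 0.885 from limma). Of the 5 genes of the group that were tested, 3 were lower and 0 higher with limma (also 3 and 0 at an unadjusted p under 0.05), where 8.98% of all genes tested were lower and 14.0% changed in either direction. The values of 4 of the 5 (IER2, IER3, IER5 and SRF) did not overlap between the groups, where the same held for 30.3% of all genes tested. In a second fit, on recovered reads with voom, 3 of the 10 genes were lower, the same IER genes, and 0 higher, where 9.53% of 14888 genes were lower. After rescaling without the 4 short RNAs, 8 of the 10 genes passed the filter, and the same 3 were lower with limma. Over all genes, 1119 were lower and 940 higher in that fit. No share of all genes was computed at an unadjusted p, so the unadjusted counts here and for the lists below have no background. Since RNA was taken from whole cultures, fewer expressing cells and less RNA per cell cannot be told apart.

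IER3 (chr6:30743199-30744548, minus strand), which encodes a stress-responsive survival protein induced through NF-κB and ERK, had 4.75, 3.94 and 4.32 TPM in CsiRNA replicates 1, 2 and 3. In NEAT1siRNA replicates 1, 2 and 3 it had 2.82, 2.86 and 2.75 TPM. All BT-549/NEAT1siRNA values lay below the lowest BT-549/CsiRNA value, and they were tightly grouped. The mean fell from 4.34 ± 0.402 to 2.81 ± 0.0556 TPM (SD, n = 3 each), or 64.7% of the control. On log2(TPM + 1) the difference was -0.48 (SE 0.096, 95% interval -0.68 to -0.29, adjusted p = 0.00109 from limma). With 0.1 added to TPM in place of 1, it was -0.61. On recovered reads, 681, 573 and 764 reads compared with 435, 466 and 397, the log2 fold change was -0.59 (adjusted p = 6.16e-05 from voom). IER3-AS1 and HCG20, on the opposite strand, overlap 440 and 759 bases of IER3, and were at 0.167 TPM or less in every library. Whether strand was used in counting is not given in the sources used here.

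IER2 (chr19:13150411-13154911, plus strand), a small nuclear protein gene that responds to serum, had 13.4, 10.9 and 11.7 TPM in CsiRNA replicates 1, 2 and 3. It had 9.26, 8.49 and 7.59 TPM in the NEAT1siRNA replicates. The groups did not overlap, although CsiRNA replicate 1 stood above the rest. The mean fell from 12.0 ± 1.31 to 8.45 ± 0.835 TPM (SD, n = 3 each), or 70.3%, and the log2 fold change was -0.46 (SE 0.10, 95% interval -0.67 to -0.26, adjusted p = 0.00262 from limma). Its recovered reads were 510, 418 and 549 against 378, 366 and 290, with a log2 fold change of -0.47 (adjusted p = 0.00140 from voom). With no filter on TPM, where all low genes enter the fit, the call was lost (adjusted p = 0.0726 from limma). Opposite-strand lncRNA genes overlap 662 and 1123 bases of IER2 and were not analysed here.

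IER5 (chr1:181088700-181092900, plus strand), which encodes a PP2A-associated regulator of HSF1 and of the cell cycle, had 3.88, 3.81 and 3.48 TPM in the CsiRNA replicates. It had 3.04, 2.58 and 2.58 TPM in the NEAT1siRNA replicates. Every silenced library was below every control library, with the smallest gap between CsiRNA replicate 3 and NEAT1siRNA replicate 1. The mean fell from 3.72 ± 0.216 to 2.73 ± 0.267 TPM (SD, n = 3 each), or 73.4%, and the log2 fold change was -0.34 (SE 0.096, 95% interval -0.54 to -0.14, adjusted p = 0.0191 from limma). Its recovered reads were 172, 171 and 190 against 145, 130 and 115. This was the least firm of the 3 calls, since it was lost with the first or the second control library left out (adjusted p = 0.0782 and 0.0509 from limma). The same was found without NEAT1siRNA replicate 3 (0.0871), and when no filter was set on TPM (0.0998).

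EGR1 (chr5:138465479-138469303, plus strand), the zinc finger factor that is the classical readout of SRF and ERK, had 6.49, 5.62 and 6.49 TPM in the CsiRNA replicates. It had 7.32, 6.36 and 5.48 TPM in the NEAT1siRNA replicates, which hold both the highest and the lowest value of the 6 libraries. The means were 6.20 ± 0.502 and 6.38 ± 0.922 TPM (SD, n = 3 each), and the log2 fold change was 0.031 (SE 0.10, 95% interval -0.18 to 0.24, adjusted p = 0.885 from limma). The interval leaves out a fall of the size fitted for IER5 and does not show that EGR1 was unchanged. The residual SD of EGR1 was at percentile 77.9 of all genes tested, against 70.5 for IER2, 27.2 for IER5, 21.1 for IER3 and 15.1 for SRF. The sign of the difference turned without CsiRNA replicate 2 (-0.029) and without NEAT1siRNA replicate 1 (-0.059).

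SRF (chr6:43171269-43181506, plus strand) had 11.6, 11.5 and 12.0 TPM in the CsiRNA replicates. It had 11.4, 9.98 and 10.3 TPM in the NEAT1siRNA replicates, so that the ranges did not overlap, although NEAT1siRNA replicate 1 came close to the CsiRNA values. The means were 11.7 ± 0.281 and 10.6 ± 0.765 TPM (SD, n = 3 each), or 90.4%, and the log2 fold change was -0.14 (SE 0.092, 95% interval -0.33 to 0.055, adjusted p = 0.368 from limma). The plot of TPM by library shows the 5 genes side by side.

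**Figure D1:**
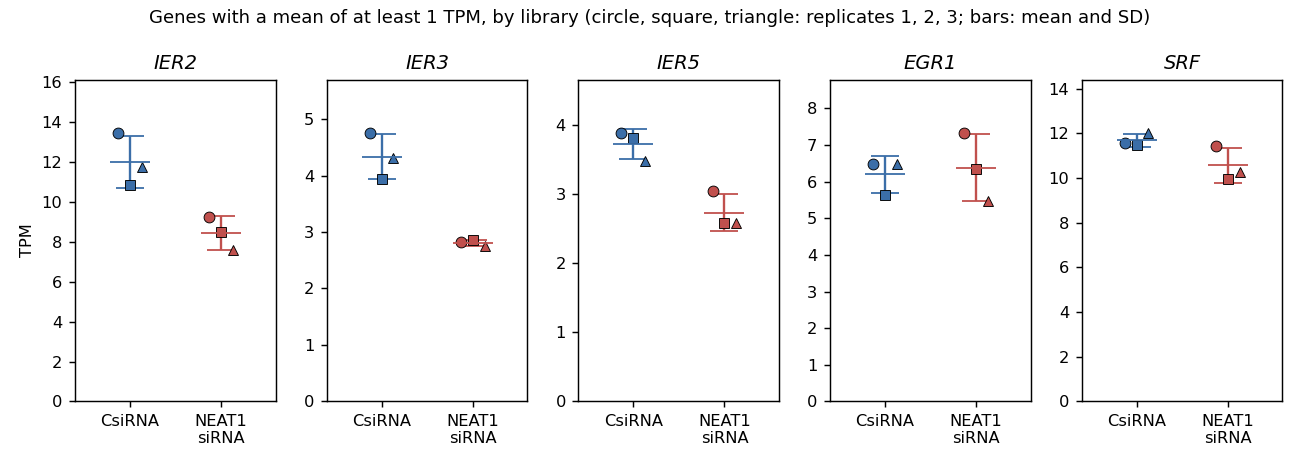
TPM (vertical axes, starting at 0) of IER2, IER3, IER5, EGR1 and SRF in the 3 BT-549/CsiRNA and 3 BT-549/NEAT1siRNA libraries. Points are libraries, the long bars are group means and the error bars SD. IER2, IER3 and IER5 separate clearly, from 12.0 to 8.45, 4.34 to 2.81 and 3.72 to 2.73 TPM, while the EGR1 groups overlap and the SRF groups lie close together.

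The genes under 1 TPM were read from recovered reads, which for counts this low came out within 0.05 of whole numbers. NR4A1 (chr12:52022832-52059507, plus strand), also known as NUR77, had 0.609, 0.589 and 0.597 TPM in the CsiRNA replicates and 0.578, 0.435 and 0.302 TPM in the NEAT1siRNA replicates. These were 48, 47 and 58 reads against 49, 39 and 24. The TPM ranges did not overlap, but NEAT1siRNA replicate 1 was next to the control values, and with voom the log2 fold change of -0.44 did not pass the test (95% interval -0.90 to 0.02, adjusted p = 0.183).

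NR4A2 (chr2:156324437-156342348, minus strand), or NURR1, had 28, 28 and 37 reads against 26, 33 and 16 (0.395 to 0.429 TPM against 0.227 to 0.415). NR4A3 (chr9:99821855-99866891, plus strand), or NOR1, had 52, 41 and 69 reads against 47, 73 and 48 (0.312 to 0.431 TPM against 0.336 to 0.494). The groups overlapped for both of these nuclear receptor genes. Their log2 fold changes from voom were -0.28 (95% interval -0.81 to 0.24, adjusted p = 0.479) and 0.10 (-0.31 to 0.51, adjusted p = 0.777). NR4A3 lies inside the opposite-strand gene STX17-DT, and NR4A1AS overlaps NR4A1 by 1045 bases.

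EGR2 (chr10:62811996-62819167, minus strand), known for its role in myelination and T cell anergy, had 8, 5 and 8 reads against 6, 13 and 6 (0.0796 to 0.129 TPM against 0.0899 to 0.184). EGR3, a relative of EGR1 known from muscle spindles and lymphocytes, had 8, 5 and 7 reads against 9, 8 and 10 (0.0543 to 0.0880 TPM against 0.0774 to 0.109). At this depth a difference was not detectable for either gene, with 95% intervals of the log2 fold change from voom of -0.67 to 1.14 for EGR2 and -0.42 to 1.32 for EGR3. An lncRNA gene on the same strand overlaps 4735 bases of EGR2, so its few reads cannot be assigned with certainty.

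**Figure D2:**
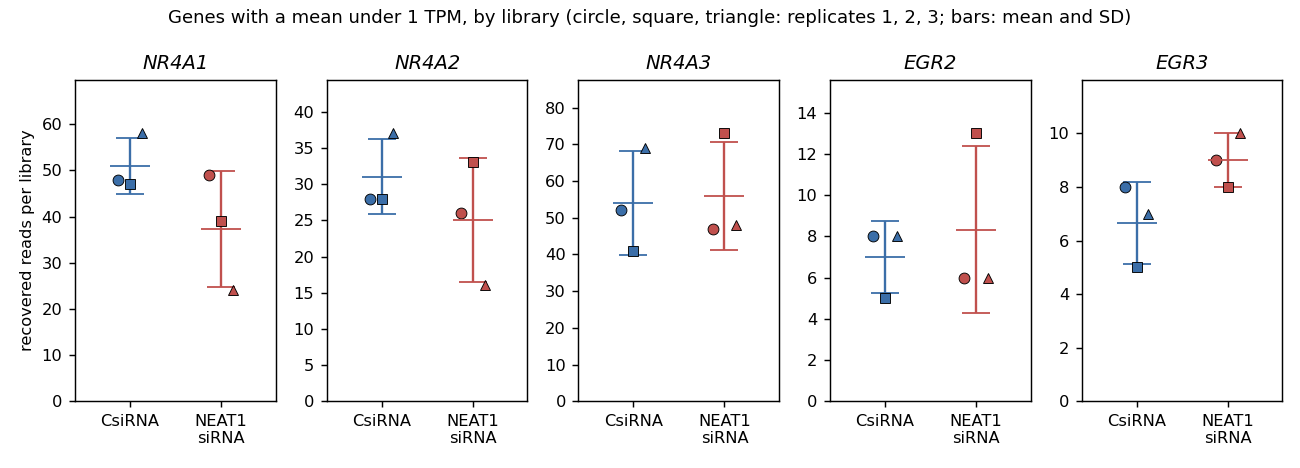
Recovered reads per library (vertical axes, starting at 0) of NR4A1, NR4A2, NR4A3, EGR2 and EGR3, which all had a mean under 1 TPM. Points are libraries, long bars means and error bars SD (n = 3 each). EGR2 and EGR3 had 5 to 13 reads in a library and the NR4A genes 16 to 73, and reads are not scaled for library depth.

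**Figure D3:**
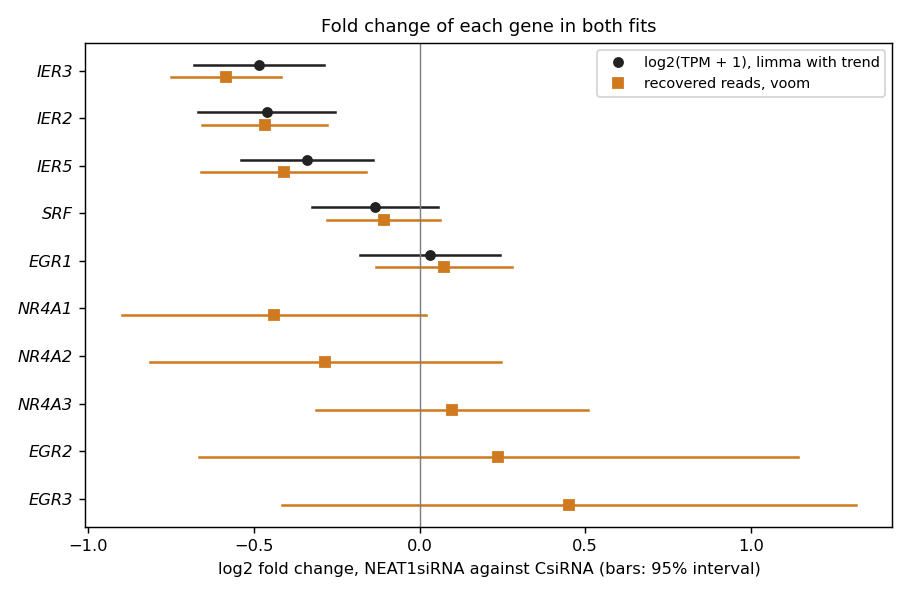
Log2 fold change of BT-549/NEAT1siRNA against BT-549/CsiRNA cells (horizontal axis) with 95% intervals, from limma on log2(TPM + 1) for the 5 genes tested and from voom on recovered reads for all 10. The intervals of IER3, IER2 and IER5 lie below 0 in both fits, and those of all other genes include 0.

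Ratios between genes of the same library do not depend on how that library was scaled. The ratio of IER3 to IER2 was 0.353, 0.362 and 0.368 in the CsiRNA replicates and 0.304, 0.336 and 0.362 in the NEAT1siRNA replicates, and the ranges overlapped (log2 difference -0.12, exact two-sided permutation p = 0.2, adjusted over 2 ratios 0.4). The ratio of IER5 to IER2 likewise overlapped (log2 difference 0.06, exact permutation p = 0.7, adjusted 0.7). With 3 libraries against 3, such a test cannot go below 0.1.

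A further 7 ratios were chosen after the values had been seen. The ratio of IER2 to EGR1 was 2.07, 1.93 and 1.81 in the CsiRNA replicates and 1.26, 1.34 and 1.39 in the NEAT1siRNA replicates, a log2 difference of -0.54. IER3 to EGR1 went from 0.731, 0.701 and 0.665 to 0.385, 0.449 and 0.501, a difference of -0.66. IER5 to EGR1 differed by -0.48, and the ratios of IER2, IER3 and IER5 to SRF by -0.36, -0.48 and -0.30. None of these 6 overlapped between the groups, and each reached the smallest exact permutation p, 0.1 (adjusted over the 7 ratios 0.117). They set genes already found lower over genes that did not pass, and reuse the same values. Their separation is thus a restatement and no separate support, and the share of other gene pairs that separate was not computed. EGR1 to SRF overlapped, with a log2 difference of 0.18 (exact permutation p = 0.3).

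**Figure D4:**
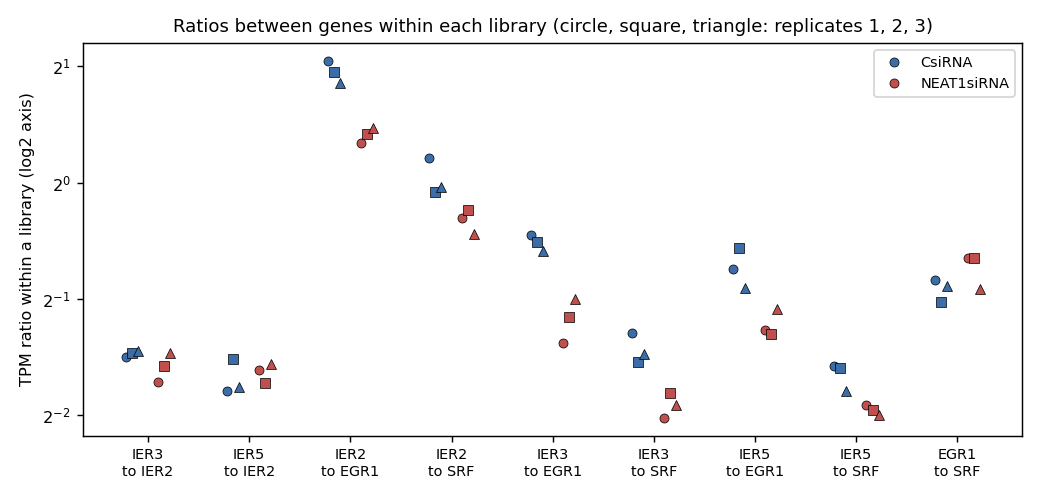
Ratio of TPM between pairs of the genes within each library (vertical axis, log2 scale), with 1 point per library. Both ratios among the IER genes overlap between the groups, as does EGR1 to SRF, while the 6 ratios of an IER gene to EGR1 or SRF are lower in all 3 BT-549/NEAT1siRNA libraries. These 6 were chosen after the values had been seen and restate the differences of the single genes.

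Over the 6 libraries, log2(TPM + 1) of IER2, IER3 and IER5 varied together, with Pearson's r of 0.96 for IER2 and IER3, 0.93 for IER2 and IER5 and 0.91 for IER3 and IER5. SRF had r of 0.75 to 0.85 with them and EGR1 0.01 to 0.26, and EGR1 with SRF had 0.36. The points share the libraries and the group difference, so these are descriptions only. The genes closest to EGR1 were TOR2A, NUMA1, HGS, WBP11 and RXRB, with r of 0.986 to 0.981, and 123 genes had r above 0.9. For example, NUMA1 had 14.1, 12.2 and 13.7 TPM in the CsiRNA replicates and 14.8, 13.5 and 12.0 TPM in the NEAT1siRNA replicates, in the same order of libraries as EGR1. Within the groups, expression relative to the group mean also moved with transcript GC content, with a Spearman rho over 10424 genes of 0.68 in the first and -0.73 in the second NEAT1siRNA library. When trends on both GC and length were removed, EGR1 still did not pass (log2 fold change 0.11, adjusted p = 0.244 from limma), and IER2, IER3 and IER5 remained lower (-0.45, -0.46 and -0.25).

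Levels can be compared between genes only per length, and the reads per TPM of IER3 did not match its annotated exonic length. Reads per TPM implied a length of 10154 bases for IER3, against 1350 exonic bases in GENCODE v44, a ratio of 7.52. For the other 7 genes with enough reads the ratio was 0.746 to 1.46. Over 11531 protein-coding genes the median ratio was 1 and 0.911% had a ratio over 3, whereas 77 of the 100 genes between 28 and 34 Mb of chromosome 6, where IER3 lies, had one (median 6.27). Whether the length used for IER3 or the number of reads counted for it lies behind this was not tested. A factor shared by all libraries cancels in the TPM ratio between groups. It does not cancel in log2(TPM + 1) or in the filter on TPM. If reads were counted more than once, it also does not cancel in the weight that voom gives them.

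As RPKM, recovered reads scaled by GENCODE exonic length and by the library total, a setting chosen after the data had been seen, IER3 had the highest value of the 8 genes that could be placed. That rank holds only if each of its reads was counted once, which was not tested. It had 24.6 to 27.8 RPKM in BT-549/CsiRNA cells and 17.1 to 18.6 RPKM in BT-549/NEAT1siRNA cells. SRF followed with 11.4 to 14.8 RPKM over all libraries. IER2 and EGR1 were neighbours, with IER2 at 7.87 to 9.10 and EGR1 at 6.47 to 7.71 RPKM in the control cells, and IER2 at 5.89 to 6.94 and EGR1 at 6.84 to 8.72 RPKM in the silenced cells, where their ranges overlapped. IER5 had 1.53 to 2.36 RPKM. NR4A3, NR4A2 and NR4A1 had means of 0.474, 0.369 and 0.330 RPKM with overlapping ranges, and EGR2 and EGR3 had too few reads to be placed. By TPM, which the same doubt touches, the order was SRF and IER2, then EGR1, IER3 and IER5.

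**Figure D5:**
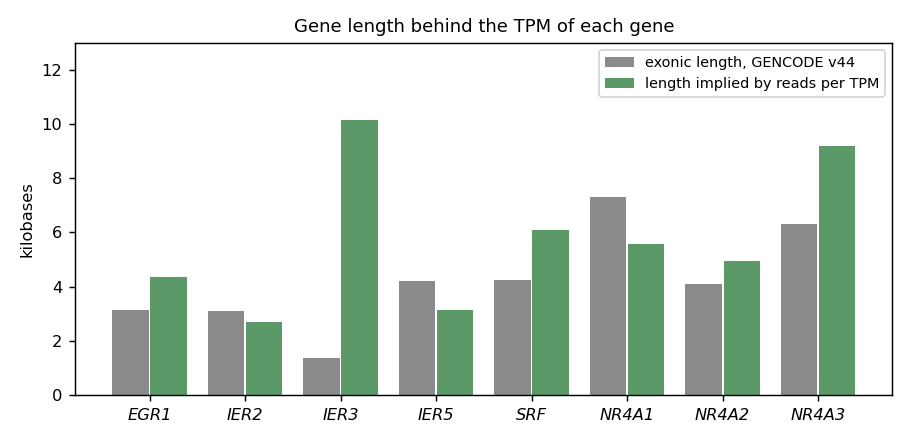
Exonic length in GENCODE v44 (grey) and the length implied by reads per TPM (green), in kilobases, for the 8 genes with a mean of at least 10 reads. The implied length of IER3 is 7.52 times its exonic length, and for the other genes the ratio is between 0.746 and 1.46.

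Genes around this group were counted in lists written by hand with earlier results of these data known, so their shares are descriptions only. Of 16 tested SRF cofactors and partners (ELK, MRTF, NAB, CREB and RXR genes among them), 1 was higher and 0 lower with limma, and their median log2 fold change was 0.025 (1 and 1 at an unadjusted p under 0.05, and 1 and 1 with voom). The share changed was 6.25%, below the 14.0% of all genes tested. The gene was RXRA, the nuclear receptor that pairs with NR4A1 and NR4A2, which rose from 2.17 ± 0.300 to 2.97 ± 0.252 TPM (SD, n = 3 each, log2 fold change 0.33, adjusted p = 0.0290 from limma). Its call was lost without CsiRNA replicate 2, CsiRNA replicate 3 or NEAT1siRNA replicate 1 (adjusted p = 0.112, 0.0852 and 0.0742), and when low genes were not filtered (0.143). Of 19 tested genes of the ERK cascade upstream, 0 were higher and 1 lower with limma, with a median of 0.011 (3 and 1 at an unadjusted p under 0.05, and 3 and 1 with voom). The share changed was 5.26%, also below the 14.0% of all genes tested. KSR1, the scaffold of RAF, MEK and ERK, fell from 2.86 ± 0.304 to 2.11 ± 0.311 TPM (log2 fold change -0.31, adjusted p = 0.0407 from limma). That direction depended on scaling, with 4 higher and 1 lower after quantile normalization, 4 and 0 after centring on the median and 3 and 0 after rescaling without the short RNAs. The KSR1 call was lost under the last 2 (adjusted p = 0.0662 and 0.0626) and without CsiRNA replicate 1, CsiRNA replicate 3 or NEAT1siRNA replicate 3 (0.127, 0.140 and 0.235), and when low genes were not filtered (0.182).

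Among 36 tested immediate early genes outside the group, 15 were lower and 3 higher, a share of 50% beside 14.0% of all genes tested, and the median log2 fold change was -0.19 beside -0.044. The largest falls were in the secreted matricellular genes CYR61 (-1.39) and CTGF (-0.999) and the chemokine CXCL8 (-1.29), with adjusted p of 9.53e-11, 3.46e-08 and 1.21e-07 from limma. The other 12 that fell were the bZIP factor genes FOSL1, FOSL2, JUN and MAFF, the ERK phosphatases DUSP5 and DUSP6, MYC, GADD45A, GADD45B, PLAUR, HBEGF and IL6. The 3 that rose were TRIB1, a pseudokinase that targets C/EBP proteins for degradation, from 9.80 ± 0.590 to 14.9 ± 1.24 TPM (adjusted p = 0.000238), the zinc finger factor KLF4, from 8.96 ± 0.720 to 13.1 ± 0.192 TPM (0.000531), and the antiproliferative BTG1, from 12.8 ± 0.756 to 16.5 ± 1.58 TPM (0.0167, all from limma, SD, n = 3 each). The BTG1 call was lost without CsiRNA replicate 2 and with no filter on TPM (adjusted p = 0.0873 and 0.0910 from limma). FOS, at 0.591 to 0.916 TPM, and FOSB, at 0.251 to 0.784 TPM, were under the filter like EGR2 and EGR3, and JUNB, at a log2 fold change of -0.030, did not pass the test (adjusted p = 0.868 from limma). The genes named here besides the 3 largest changes in each direction were chosen after their values had been seen.

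Of 13 tested EGR1 target genes, 6 were lower and 1 higher, a share of 53.8% changed beside 14.0% of all genes tested, with a median of -0.012 beside -0.044 on the log2 scale. The matrix glycoprotein THBS1 fell from 365 ± 33.8 to 241 ± 12.0 TPM (SD, n = 3 each, -0.59, adjusted p = 4.03e-05) and the adhesion molecule ICAM1 from 15.1 ± 0.373 to 9.97 ± 0.295 TPM (-0.55, 0.000148, both from limma). PTGES, prostaglandin E synthase, rose from 2.94 ± 0.514 to 4.06 ± 0.0697 TPM (0.37, adjusted p = 0.0167 from limma), a call lost without CsiRNA replicate 2 or NEAT1siRNA replicate 3 (0.160 and 0.0636). It was also lost when low genes were not filtered (adjusted p = 0.143 from limma). Of 7 tested NR4A target genes, 1 was lower and 0 higher with limma, at an unadjusted p under 0.05 and with voom, with a median of 0.017. The share of 14.3% changed was near the 14.0% of all genes tested. The gene was TXNIP, the thioredoxin inhibitor, which fell from 23.7 ± 1.52 to 13.5 ± 0.771 TPM (-0.76, adjusted p = 2.89e-06 from limma).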

How the data were processed

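The authors used STAR for alignment to GRCh38 and DESeq2 for their comparison, after stranded mRNA library preparation from triplicate cultures. The deposited expression table gives TPM for 25545 genes in 6 libraries, and its gene lengths, the counter and its strand setting are not given in the sources used here. The deposited comparison table of the authors gives a mean normalized count for 19392 genes, a signal averaged over the libraries. Its other columns hold their own fold changes and p-values, and were not used.

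TPM were transformed to log2(TPM + 1), genes with a mean of at least 1 TPM were kept, and the moderated test of limma 3.58.1 (eBayes with trend, R 4.3.3) was applied to all genes, with Benjamini-Hochberg adjustment over all of them. TPM keep no depth, so reads were recovered by joining both deposited tables. Recovered values lay within 0.05 of an integer in 99.8% of cases for the 5043 lowest genes and in 24.6% for the highest, whose reads are approximate. Recovered reads were fitted with voom (TMM factors, at least 10 reads in total). Intervals are 95%. Symbols were matched to GENCODE v44, 22278 by current and 783 by older names, and 2484 did not match. Promoter windows came from RefSeq and were searched by string match on both strands. Permutation tests were run in Python 3.11.15 (scipy 1.17.1). The main limma fit was also run on simulated counts, which had a fixed dispersion and no GC trend. The other settings, voom among them, were not run on simulated counts.

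The genes and lists were chosen with earlier results of these data known. Every gene of the group is named, with the 3 largest rises and falls past the threshold in each list and the 5 genes most correlated with EGR1. The result of 1 gene that this rule names is not reported here. The labels do not say whether the replicates of a group were independent experiments, so p-values measure the spread between these cultures, and they name no batch. Alternatives covered the pseudocount, the filter, scaling, the trend, a replicate block, removal of a GC and length trend (splines with 4 degrees of freedom), voom, a threshold of 0.01 and each library left out.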

Additional observations from a re-analysis of the deposited data

How the results depend on the processing

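IER3 stayed lower and past the threshold in every setting in which it was tested, and IER2 in all but the fit with no filter. The number of genes of the group called lower was 3 under the other settings, except 1 with no filter (IER3), 1 with a mean of at least 5 TPM (IER2, with 3 of the genes tested), 2 at an adjusted p under 0.01, and 2 to 3 with a library left out. Over all genes the number lower also moved, from 963 to 263 with no filter, 675 with a mean of at least 5 TPM and 443 at 0.01. It was 1109 after quantile normalization, 1764 with the GC and length trend removed, 1419 with voom, and 383 to 1590 with a library left out. EGR1 turned sign without CsiRNA replicate 2 (-0.029) and without NEAT1siRNA replicate 1 (-0.059), within a range of -0.059 to 0.12 with each library left out. The cause was not tested.

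Of all genes, 1498 were changed, against 505 with no filter, 719 at 0.01, 2740 with voom, 3468 with the GC and length trend removed, 3390 with that and the replicate block, and 759 to 2083 with a library left out (759 without CsiRNA replicate 1, 838 without NEAT1siRNA replicate 3). Same-numbered libraries of the groups had correlations of -0.030, 0.25 and -0.11, and differently numbered ones -0.40 to 0.40. The GC trend also enters these values, so they cannot settle whether replicate numbers pair the libraries. With the replicate block alone 1640 genes were changed, 3 of them in the group. The block changed no call among the tested genes of the group and the 3 largest rises and falls of each list. Other named genes were not looked up in that fit. The SRF cofactor list had 0 changed with no filter, at a mean of at least 5 TPM and at 0.01, 2 with voom, 5 with the trend removed, 4 with the trend and the block, and 0 to 2 with a library left out. The ERK cascade had 0 with no filter and at 0.01, 5, 4 and 3 under quantile, median and short RNA scaling, 7 with the trend removed, 6 with the trend and the block, 4 with voom, and 0 to 3 with a library left out. EGR1 targets had 3 changed with no filter, and NR4A targets 4 with the trend removed and 3 with the block as well. Counts over all genes moved too, to 3468 of 10424 with the trend removed and 2740 of 14888 with voom. They were 2191, 2112 and 2059 under quantile, median and short RNA scaling. The shifts of the list counts between settings are therefore not read as results about the lists. Depth limits EGR2, EGR3 and the NR4A genes, which had 5 to 73 reads per library.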
